A study of Mus musculus with 2 samples.

Results

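Blood endothelial cells carrying the transcripts of Esm1 and Angpt2, genes that mark the tip cells of sprouting capillaries, made up 183 of the 1043 Prox1-negative endothelial cells and of 8091 cells in all. They were chosen by their transcript counts, as cells with at least 1200 unique molecular identifiers (UMIs, 1 per captured transcript), at least 200 genes and at most 25% of UMIs from mitochondrially encoded genes. They had no UMI of Prox1, the lymphatic master regulator, or of Ptprc, which encodes the leukocyte antigen CD45. They had at most 1 UMI of the lymphocyte genes Cd79a and Cd3e together, and at least 2 of the endothelial genes Cdh5, Pecam1 and Egfl7. They further had at least 2 UMIs of Esm1 and Angpt2 together and at most 4 of the interferon-induced chemokine gene Cxcl9. There were 90 such cells in the wild-type (WT) library and 93 in the library labelled Atg5 KO, and they were compared with the 531 and 329 remaining Prox1-negative endothelial cells that passed the same conditions with an Esm1 and Angpt2 sum of 0 or 1.

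The cells came from tumour-draining inguinal lymph nodes of mice, 13 nodes from WT animals and 9 from animals lacking Atg5 in lymphatic endothelial cells (LECs). Viable endothelial cells, sorted as CD31+ and free of CD45 and Ter119, were pooled with viable immune cells, sorted as CD45+ and free of CD31 and Ter119, which gave 1 BD Rhapsody single-cell library per genotype. Lymphatic cells are the only ones the labels give as the site of the deletion, and Atg5 loss in blood endothelial cells was not checked. The labels used here name neither the promoter that drives the deletion, nor the deleted exon, nor the tumour or the age of the animals. Atg5 was found at 24.3 CPM in the tip-like cells of the WT library and 40.2 CPM in those of the other, and transcripts counted at their 3' ends outside a deleted exon check nothing, so that library is called KO-labelled.

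Sprouting vessels are led by tip cells, which extend filopodia along gradients of VEGF-A, degrade and lay down matrix, and use Dll4 to signal through Notch to the stalk cells behind them. ESM1 (endocan) is a secreted proteoglycan induced by VEGF, and ANGPT2 is a ligand of the receptor TIE2 that in most settings opposes ANGPT1. Capillary endothelium of a lymph node otherwise consists of resting cells that exchange nutrients and lipids, and it drains into high endothelial venules (HEVs), through which lymphocytes enter.

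All barcodes together held 23649554 UMIs in WT and 23089918 in the other library, with medians of 3530 and 3347 UMIs per cell, and 14 cell barcodes occurred in both. Each mixed male and female cells. With 1 library per genotype there is no replicate and no test in what follows. Intervals are exact 95% intervals of counting error, which take UMIs as independent and leave out variation between cells and animals. Levels are CPM of a class: a gene's UMIs in all its cells, scaled to their total without mitochondrially encoded genes.

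The tip-like cells had more transcripts per cell than their neighbours. In WT a tip-like cell had a median of 6378.5 UMIs and 2365.5 genes and another endothelial cell 3939 UMIs and 1755 genes. The KO-labelled library gave 6289 UMIs and 2288 genes against 4025 UMIs and 1751 genes. A rule that asks for 2 UMIs admits deeper cells more easily, and the part of depth in the gene differences was not tested beyond the thinning given below. Mitochondrially encoded genes held a median of 10.81% and 10.01% of UMIs in tip-like cells and 10.04% and 11.26% in the others. Of the tip-like cells that could be assigned to a sex by Xist and Y-linked transcripts, 92% of the WT and 81.4% of the KO-labelled library were male, against 76.4% and 57.2% of the other cells.

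Tip-like cells formed a larger share of the Prox1-negative endothelium in the KO-labelled library. The share was 14.5% (interval 11.8 to 17.5, 90 of 621 cells) in WT and 22.0% (18.2 to 26.3, 93 of 422 cells) in the KO-labelled library. Among male cells it was 21.4% (17.1 to 26.3, 69 of 322) and 30.3% (23.8 to 37.4, 57 of 188). Among female cells it was 7.14% (2.67 to 14.9, 6 of 84) and 11.7% (6.39 to 19.2, 13 of 111). The share was thus higher in male than in female cells of both libraries, and the intervals of the libraries overlapped within each sex. Among cells with no sex assigned it was 6.98% (3.96 to 11.2, 15 of 215) and 18.7% (12.2 to 26.7, 23 of 123), and these intervals did not overlap. Thinning every cell to 1200 UMIs before the rule was applied left 3.79% and 9.0%. The absence of Prox1 and Ptprc was then judged on thinned counts too. A LEC whose Prox1 UMIs were all thinned away could thus be counted as Prox1-negative. LECs were unequal in number, with 597 cells (WT) against 190 (KO-labelled). The thinned shares therefore cannot separate depth from such cells, whose number was not determined. Sorting, pooling, tumour burden and genotype cannot be told apart with 1 pool per genotype.

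**Figure D1:**
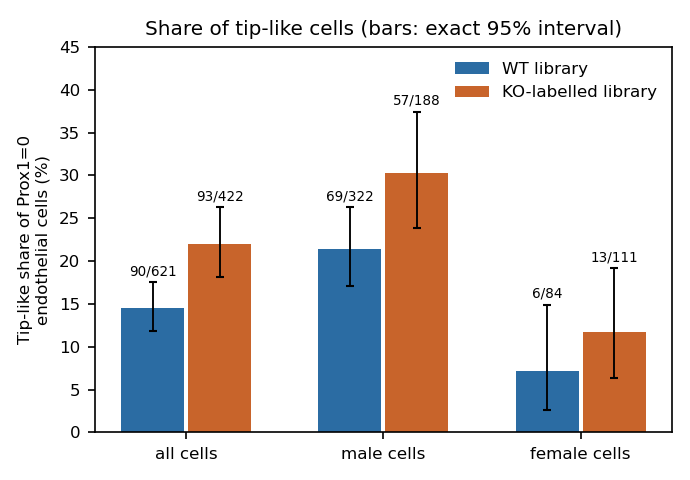
Share of tip-like cells among Prox1-negative endothelial cells in percent, for all cells and for cells assigned to a sex. Bars are libraries, lines are exact 95% intervals of counting error, and the counts stand above them; the share is 14.5% for WT against 22.0% for the KO-labelled library, and male cells lie above female cells in both.

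The genes of the rule are given as a description, since they chose the cells. Esm1 (chromosome 13, 113209659-113218098 in mm10) was found at 798 CPM in tip-like cells of the WT library and 903 CPM in those of the KO-labelled library, against 10.9 and 9.07 CPM in the others. Angpt2 (chromosome 8, 18690263-18741562) was found at 589 and 651 CPM against 16.8 and 14.7. Both genes were detected together in 47 of the 90 and 51 of the 93 cells, Esm1 alone in 20 and 19, and Angpt2 alone in 23 and 23. The median sum was 5 UMIs in both libraries, and the highest was 92 and 73. At the threshold, 23 and 22 cells held a sum of exactly 2, and 61 and 34 endothelial cells just outside it held a sum of 1, most of the others holding none.

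Abcc9 and Celf4, the other markers given for these cells, were higher in them. Abcc9, a regulatory subunit of ATP-sensitive potassium channels (chromosome 6, 142587862-142702315), was found at 167 CPM against 15.5 in the WT library, a ratio of 10.8 (7.22 to 16.4), and at 239 CPM against 34.9 in the other, with 6.86 (4.94 to 9.66) as the ratio. Celf4, an RNA-binding protein best known from neurons, was found at 109 CPM against 4.55 (ratio 24.1, 12.3 to 52.6) and at 147 CPM against 16.7 (8.79, 5.54 to 14.4). Kcnj8, which encodes the pore of the channel that Abcc9 completes and lies next to it on chromosome 6 (142564837-142571614), was also higher, at 53.9 against 7.28 CPM and 35.1 against 4.88 CPM, ratios of 7.40 and 7.19.

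Abcc9 and Kcnj8 are also pericyte genes, and the defining pericyte transcripts were at or near 0. Pdgfrb had 0 and 1 UMIs over all tip-like cells of the WT and KO-labelled libraries, Cspg4 none in either, Notch3 0 and 1, and Rgs5 1 and 6. Of the 13 genes of the pericyte and smooth muscle list, 8 and 6 had no UMI in tip-like cells. The list's summed level was 228 and 301 CPM in tip-like cells against 74.6 and 76.8 CPM in the others, of which Abcc9 and Kcnj8 hold the greater part. Fibroblast, B cell, T cell, myeloid and platelet lists summed to between 1.67 and 19.1 CPM in tip-like cells, and the epithelial list to 0 in both libraries.

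Against the other Prox1-negative endothelial cells, 115 of 9001 genes with enough UMIs (1.28%) were at least 2-fold higher in tip-like cells of each library, and 326 genes (3.62%) were at least 2-fold lower in each. Cells were sorted into these classes by their own Esm1 and Angpt2 counts, so every gene in this contrast is a description and carries no test. The 10 genes of the rule were kept out of the count, but Xist, which marks female cells, is among the 326 lower genes. In male cells alone, 79 of the 115 higher and 142 of the 326 lower genes were kept, in fewer cells. Among the 303 genes at least 2-fold higher in the WT library with an interval off 1, 213 (70.3%) lay on the same side in the KO-labelled library and 111 (36.6%) were 2-fold higher there, where 41.5% and 3.34% of all genes did so. Of the 566 genes lower in the WT library, 491 (86.7%) lay on the same side and 279 (49.3%) were 2-fold lower, against 58.5% and 11.4% of all genes.

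**Figure D2:**
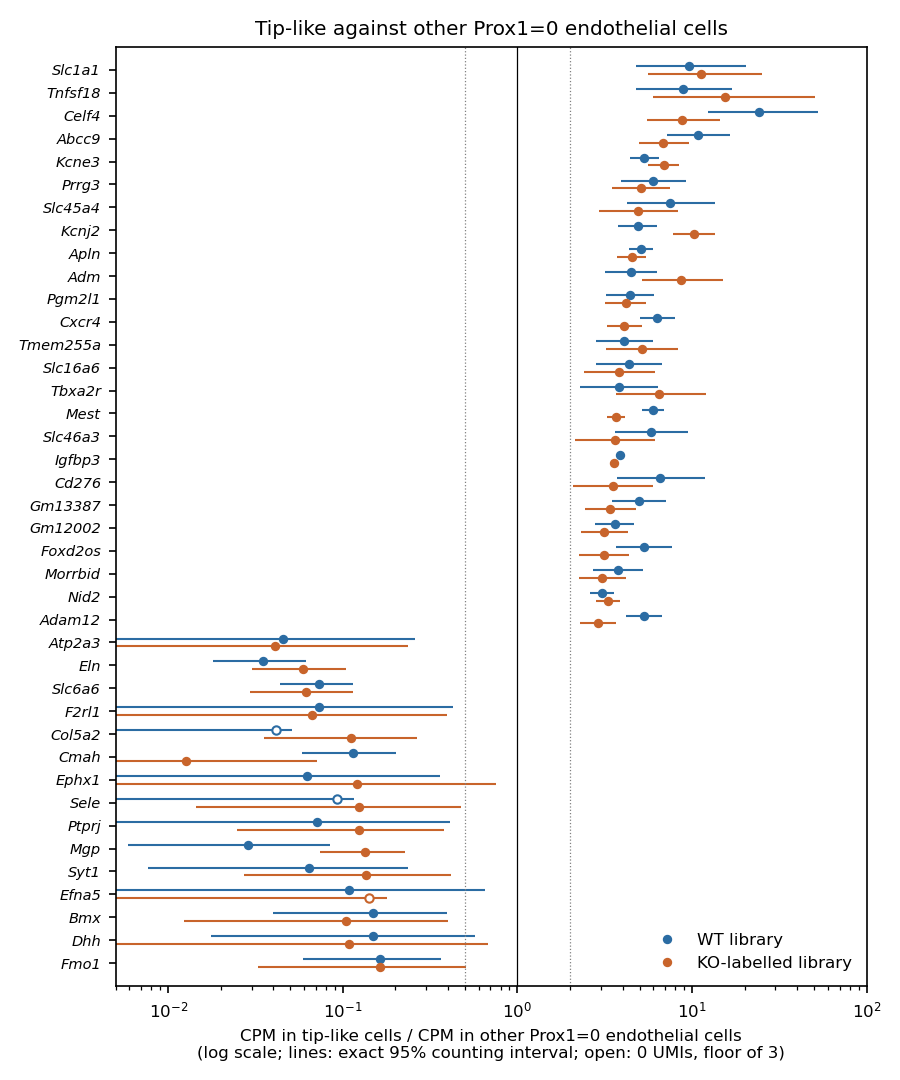
Ratio of CPM in tip-like cells to CPM in other Prox1-negative endothelial cells, on a log axis, for the 25 leading genes higher in both libraries and the 15 leading genes lower in both. Points are libraries, lines are exact 95% counting intervals, open points mark 0 UMIs set to a floor of 3, and dotted lines mark 2-fold; Abcc9 lies at 10.8 and 6.86 and Eln at 0.0351 and 0.0592.

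Secreted signals of sprouting endothelium were among the leading genes. Apln, the ligand of the apelin receptor and a classical tip cell product (chromosome X, 48025146-48034853), was found at 643 CPM (579 to 712) in tip-like cells and 126 CPM (112 to 142) in the others of the WT library. In the KO-labelled library it was found at 559 CPM (500 to 622) and 124 CPM (107 to 144). The levels of each class were close between libraries, and the ratios were 5.10 and 4.50. Aplnr, its receptor, went the other way, at 268 against 408 CPM and 383 against 513 CPM, ratios of 0.656 and 0.747 that do not reach 2-fold. Adm, the vasoactive peptide adrenomedullin, was found at 132 against 29.6 CPM and 120 against 14.0 CPM, ratios of 4.46 and 8.63. LECs had Adm at 117 and 232 CPM, so it was not particular to the tip-like cells. Igfbp3, an IGF-binding protein and the most abundant of these genes, was found at 4844 against 1258 CPM in WT and 5869 against 1644 CPM in the KO-labelled library, ratios of 3.85 (3.65 to 4.06) and 3.57 (3.39 to 3.76). Tnfsf18, the ligand of the T cell receptor GITR, had ratios of 8.83 and 15.3 at 64.3 and 53.5 CPM.

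Receptors, channels and transporters were also among the leading genes. Cxcr4, the receptor of CXCL12, was found at 351 CPM in tip-like cells against 55.5 CPM in WT and 360 against 87.9 CPM in the KO-labelled library, ratios of 6.32 and 4.09. Kcne3, an accessory subunit of potassium channels, was found at 443 against 83.3 CPM and 637 against 92.8 CPM, ratios of 5.32 and 6.87. Kcnj2, an inward rectifier potassium channel, was found at 248 against 51.0 CPM and 470 against 46.1 CPM, ratios of 4.88 and 10.2. With Abcc9 and Kcnj8, 4 genes of potassium channels were thus at least 4-fold higher in each library, a grouping made after the values were seen. Kcnj8 rests on 31 and 21 UMIs in 15 and 9 tip-like cells. Its call was lost without the cell with most UMIs and in male cells alone, where Abcc9, Kcne3 and Kcnj2 kept theirs. Transporters were Slc1a1 for glutamate (9.55 and 11.3), Slc16a6 of the monocarboxylate family (4.35 and 3.82), Slc45a4 (7.45 and 4.89) and Slc46a3 (5.79 and 3.60). Tbxa2r, the thromboxane receptor, had ratios of 3.82 and 6.49, and Cd276, an immune checkpoint protein of the B7 family described on tumour vessels, 6.55 and 3.5.

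The remaining leading genes included Mest, an imprinted gene of growth control, at 794 against 133 CPM and 1184.5 against 322 CPM (5.98 and 3.67), and the metalloprotease gene Adam12 (5.29 and 2.90). Prrg3 (5.97 and 5.07), Pgm2l1 (4.41 and 4.16) and Tmem255a (4.08 and 5.14) were higher as well. So were the non-coding genes Gm13387, Gm12002, Foxd2os and Morrbid, with ratios between 3.06 and 5.29. In female cells alone Morrbid lay on the other side of 1.

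How many of these genes a tip-like cell held varied widely. Of 10 leading genes (Apln, Kcne3, Cxcr4, Adm, Abcc9, Celf4, Kcnj2, Tnfsf18, Mest and Nid2, picked after their values were seen), at least 5 were detected in 43 of 90 tip-like cells of the WT library (47.8%) and 54 of 93 of the KO-labelled library (58.1%). Among the other cells, 15 (2.82%) and 12 (3.65%) reached 5, a direction set by the choice of the genes and counted at unequal depth. None of the 10 was detected in 12 and 5 tip-like cells. The 115 genes together held a median of 2.79% and 3.06% of the UMIs of a tip-like cell and 0.819% and 0.922% of those of another endothelial cell, which restates how the genes were chosen. Single cells ranged from 0.257% to 7.99% and from 0.269% to 7.77% among the tip-like cells, so cells at the low end overlapped the bulk of the others.

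The level of the 115 genes also differed with the Esm1 and Angpt2 sum. The genes were chosen on the split between sums of 0 to 1 and of 2 or more, so a difference across that split is fixed, and the sum is the measure of the rule. With an Esm1 and Angpt2 sum of 0 the 115 genes held a median of 0.779% and 0.873% of UMIs, with a sum of 1 they held 1.08% and 1.38%, with 2 to 4 they held 2.08% and 2.02%, and with 5 or more 4.13% and 3.81%. Depth went up along the same order, with medians of 3856 and 3980 UMIs at a sum of 0 and 6980.5 and 8145.5 UMIs at 5 or more, and its part in the gradient was not tested. Apln was found at 123, 148, 317 and 870 CPM along these classes in WT and at 126, 109, 333 and 693 CPM in the KO-labelled library. Among the tip-like cells, Apln was thus higher with 5 or more UMIs than with 2 to 4 in both libraries. Cells with 5 or more supplied 339094 of the 575548 tip-like UMIs in WT and 375286 of 597709 in the KO-labelled library. Apln and the rest of the 115 genes were chosen on these sums, so a higher level at 5 or more is favoured by the choice. Car4, carbonic anhydrase of the capillary surface, went from 101 and 170 CPM at a sum of 0 to 5.90 and 7.99 CPM at 5 or more.

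**Figure D3:**
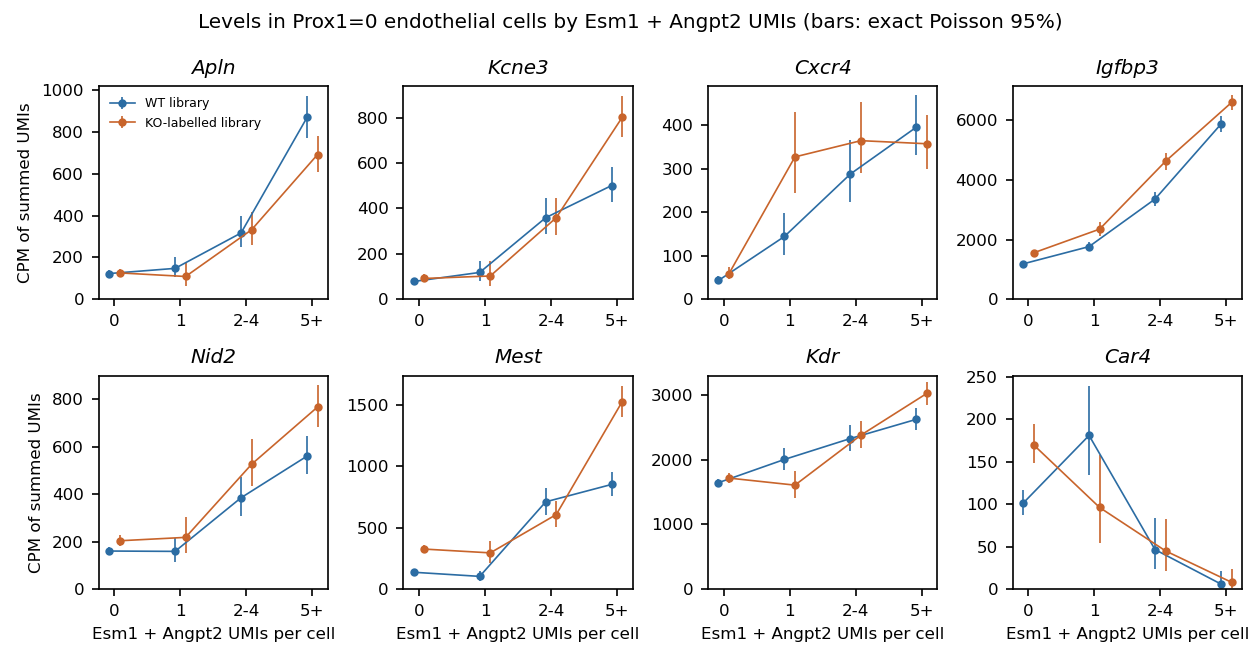
Levels of 8 genes in CPM (summed UMIs) in Prox1-negative endothelial cells with an Esm1 and Angpt2 sum of 0, 1, 2 to 4, and 5 or more UMIs. Points are libraries and bars exact Poisson 95% intervals; Apln lies at 870 and 693 CPM in the last class and 123 and 126 CPM in the first, and Car4 runs the opposite way.

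Cells with both rule genes differed from cells with 1 of them. The 115 genes held 4.17% and 4.22% of UMIs in cells with both, 2.15% and 2.29% in cells with Esm1 alone and 1.36% and 1.67% in cells with Angpt2 alone. The genes were chosen on the summed UMIs of all tip-like cells. Cells with both supplied 315751 of these 575548 UMIs in WT and 356723 of 597709 in the KO-labelled library. A higher share in cells with both is thus favoured by the choice of the genes. In cells with a sum of 1, outside the rule, they held 1.08% and 1.38%. Kdr was at 1659 and 1834 CPM with Angpt2 alone and at 1691 and 1706 CPM in the other endothelial cells. Flt1 was at 1237 and 2162 CPM against 1940 and 2047 CPM. Abcc9 was higher with Angpt2 alone, at 74.6 and 150 CPM against 15.5 and 34.9 CPM. Whether cells with Angpt2 alone are tip-like was not tested. Igfbp3 was at 6141 and 7311 CPM in cells with both genes and at 6361 and 4918 CPM with Esm1 alone, but at 1367 and 2973 CPM with Angpt2 alone. Apln took another order, with 918 and 718 CPM in cells with both, 379 and 396 CPM with Angpt2 alone and 192 and 212 CPM with Esm1 alone. Igfbp3 was thus higher with Esm1 alone than with Angpt2 alone and Apln the reverse in each library, in groups of 19 to 23 cells. Apln was read from few cells, 3 of 20 and 4 of 19 with Esm1 alone and 5 of 23 and 9 of 23 with Angpt2 alone. The intervals of these shares overlapped in each library. Cells with Esm1 alone were also shallower, with medians of 4314.5 and 4276 UMIs against 6532 and 4937 with Angpt2 alone. Cells with both had medians of 6400 and 7386 UMIs.

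Apln, Kcne3, Igfbp3, Mest and Cxcr4 were also detected more often in tip-like cells at equal depth. After thinning each cell to 1200 UMIs, Apln was detected in 21.1% and 30.1% of tip-like cells and 5.27% and 5.47% of the others, where it had been found in 38.9% and 46.2% against 10.5% and 13.1% before thinning. B cells, which should lack Apln, showed 0.135% and 0% after thinning at median depths of 2630.5 and 2641 UMIs. Kcne3 was detected after thinning in 27.8% and 35.5% against 6.03% and 6.38%, and Igfbp3 in 73.3% and 78.5% against 37.1% and 46.2%. Mest was detected in 27.8% and 47.3% against 4.33% and 11.2%. Cxcr4, at 28.9% and 30.1% against 4.90% and 8.51%, is also a B cell gene that 71.8% and 66.6% of B cells showed. For rarer genes the intervals of tip-like and other cells overlapped after thinning. This held for Tnfsf18 (3.33% and 3.23% against 0.565% and 0.304%), for Adm (7.78% against 2.45%) and Prrg3 (4.44% against 1.32%) in WT, and for Slc1a1 and Kcnj8 in the KO-labelled library. It also held for Itga9 in WT (13.3%, 7.08 to 22.1, against 7.16%, 5.11 to 9.69).

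Other endothelial classes were set side by side with the tip-like cells. Classes were set by marker UMIs: HEV cells from Glycam1 and Chst4, venous cells from Ackr1 and Selp, arterial cells from Gja5 and Bmx, and capillary-like cells as those with capillary genes and none of these. Apln was at 158 and 149 CPM in capillary-like, 117 and 158 in venous, 13.7 and 0 in arterial and 0 and 13.7 in HEV cells. Abcc9 was at 24.8 and 53.9 CPM in capillary-like cells and had no UMI in the arterial, venous and HEV cells of either library. Angpt2 was at 126 and 559 CPM in LECs, which express it too, whereas Esm1 had 0 and 0.681 CPM there. Endothelial cells with 5 or more Cxcl9 UMIs, left out by the rule, numbered 31 and 61, of which 5 and 16 passed the Esm1 and Angpt2 condition. They had Abcc9 at 0 and 155 CPM and Apln at 219 and 315 CPM. Apln was detected in 12.9% of these cells in WT and in 45.9% of those of the KO-labelled library, where 46.2% of tip-like cells showed it.

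**Figure D4:**
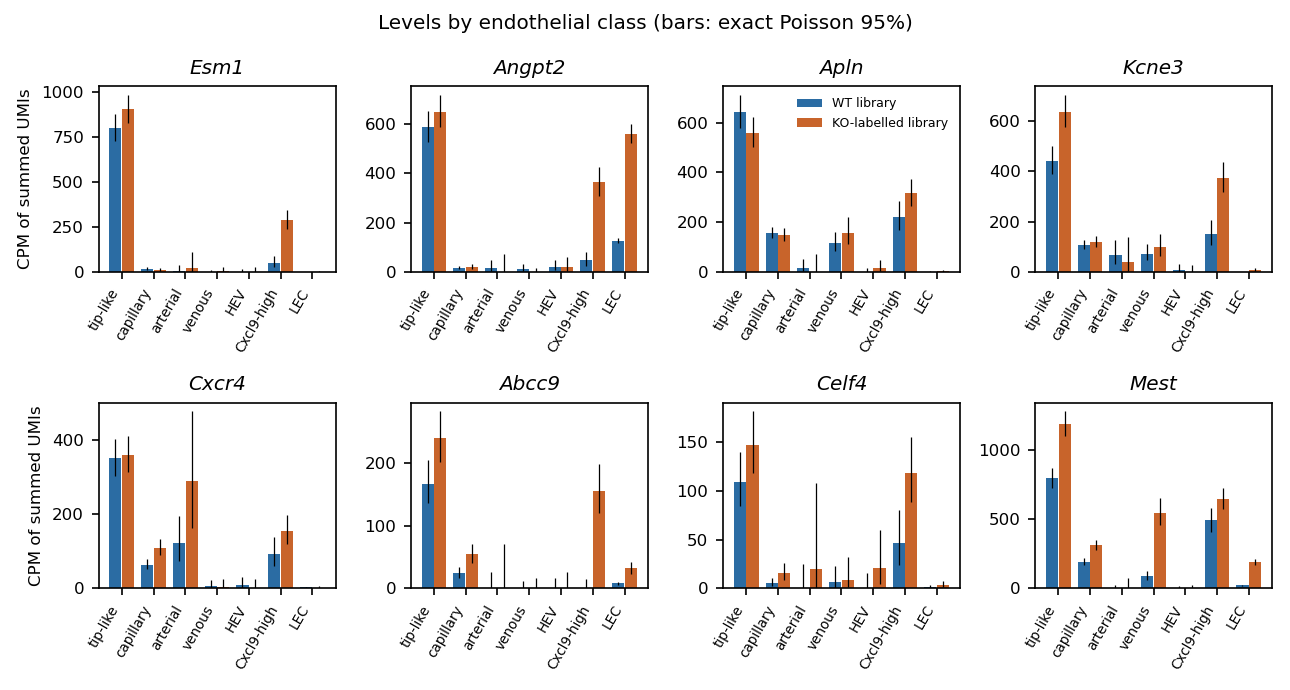
Levels of 8 genes in CPM (summed UMIs) in tip-like cells and 6 other endothelial classes. Bars are libraries and lines exact Poisson 95% intervals; Apln lies at 643 and 559 CPM in tip-like cells and at 158 and 149 CPM in capillary-like cells, and Angpt2 reaches 559 CPM in LECs of the KO-labelled library.

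Set against the 362 and 230 capillary-like cells alone, 97 genes were at least 2-fold higher in both libraries and 173 at least 2-fold lower, and 73 of the 115 higher genes and 133 of the 326 lower genes were kept. The genes that define the capillary-like cells were not taken out of these counts. Glycam1 and Selp, absent from those cells by definition, turned from lower to higher by construction. Car4, 1 of the capillary genes that define them, is among the lower genes kept. Against the capillary-like cells Apln had ratios of 4.08 and 3.74, Kcne3 4.13 and 5.32, Cxcr4 5.52 and 3.27 and Abcc9 6.72 and 4.44.

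Genes of tip cells were higher as a group. Of 21 members measured, 19 lay above 1 on the mean of both libraries, 10 were at least 2-fold higher in each and 0 lower, at a median log2 ratio of 1.13 where all 9001 genes had -0.08. The list was chosen with knowledge of these data. Beside those above, Unc5b, a netrin receptor, had ratios of 2.53 and 3.38, Pdgfb, which recruits pericytes, 2.13 and 2.20, Trp53i11 2.37 and 2.20, and Chst1, a sulfotransferase, 2.62 and 2.18. Unc5b was at 405 and 328 CPM in tip-like cells, 384 and 522 CPM in arterial cells and 330 and 326 CPM in LECs. Against capillary-like cells alone, Unc5b and Chst1 were called higher and Pdgfb and Trp53i11 were not. Plvap, of the diaphragms of fenestrated capillaries, and Cd34, a sialomucin of capillaries, were near 1, with 0.767 and 0.926 and with 1.07 and 1.15.

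Of the VEGF receptors, Flt4 was more than 2-fold higher in both libraries. Of 8 VEGF genes measured, 7 lay above 1 and 1 was called in each direction, with a median log2 ratio of 0.61, which was -0.24 in female cells. Flt4, encoding VEGFR3, was found at 228 against 87.4 CPM and 308 against 94.2 CPM, ratios of 2.61 and 3.27. Arterial cells had Flt4 at 220 and 213 CPM and LECs at 493 and 953 CPM, so it was not particular to the tip-like cells. It is also a gene of LECs, whose list summed to 858 and 425 CPM in tip-like cells and 982 and 860 CPM in the others. Kdr, encoding VEGFR2, was found at 2505 against 1691 CPM in the WT library, with ratios of 1.48 and 1.63, and Flt1, the decoy receptor VEGFR1, had 1.37 and 1.62. The co-receptor Nrp1 had ratios of 1.68 and 1.59, so none of these 3 reached 2-fold. Vegfa, the ligand, had 1 and 2 UMIs in tip-like cells (1.74 and 3.35 CPM) and ratios of 0.147 (0.00358 to 0.894) and 0.200 (0.0229 to 0.805). Capillary-like cells had 0.730 and 1.10 CPM of Vegfa, and the lower call was lost against them. Tek, which encodes the ANGPT2 receptor TIE2, was lower, at 90.3 against 243 CPM and 124 against 265 CPM, ratios of 0.372 and 0.467. The related receptor Tie1 was near 1 (0.997 and 1.03), and so was the phosphatase gene Ptprb (0.878 and 0.934).

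Notch genes were mixed. Of 13 measured, 7 lay above and 6 below 1, and 0 were called in either direction. Of all genes, 1.28% were called higher and 3.62% lower. Dll4, the ligand of tip cells, was found at 745 against 390 CPM and 761 against 302 CPM, ratios of 1.91 (1.70 to 2.15) and 2.52 (2.20 to 2.88), so the WT value fell short of 2-fold. Arterial cells, which are among the comparison cells, had Dll4 at 810 and 812 CPM, no lower than the tip-like cells. Notch4 had 1.79 and 2.00, Nrarp, a Notch target and feedback inhibitor, 1.67 and 2.12, and Notch1 1.39 and 1.54.

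Basement membrane genes were higher as a group. Of 15 measured, 11 lay above 1 in each library, and 4 were called higher and 0 lower, at a median log2 ratio of 0.67. The laminin chains Lama4, Lamb1 and Lamc1, which assemble into the laminin of vessel walls, had ratios of 2.43 and 2.46, of 2.56 and 2.80, and of 2.32 and 2.92. Nid2, a nidogen that links laminin to collagen, was found at 488 against 160 CPM and 678 against 205 CPM, ratios of 3.05 and 3.30. Against capillary-like cells alone, Lamc1 and Nid2 were called higher and Lama4 and Lamb1 were not, at a list median of 0.84. Col4a1, the main collagen of this membrane, had ratios of 1.38 and 1.56, and Sparc, a collagen-binding protein, 1.67 and 2.23.

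Matrix-remodelling genes were mixed, with 9 of 17 above 1, 2 called higher and 3 lower. Mmp14, a membrane-bound collagenase that tip cells use, had ratios of 2.32 and 2.12, and Plau, the urokinase of plasminogen activation, 2.18 and 2.52. Timp2, which inhibits metalloproteases, had 0.337 and 0.445, and Lox, an enzyme that cross-links collagen, had no UMI in tip-like cells of either library and ratios of at most 0.255 and 0.257. Of 9 integrins, 8 lay above 1 and 1 was called higher, Itga9 with 2.29 and 2.84, while Itgb1, the common beta chain, had 1.5 and 1.69. Itga9 was at 221 and 256 CPM in tip-like cells. It was higher in arterial cells (329 and 348 CPM) and LECs (457 and 388 CPM). Among 21 guidance genes, 13 lay above 1 and 3 were called higher, Unc5b above, Sema3f (2.21 and 2.47) and Sema6d (2.28 and 2.59), both semaphorins. Sema6d was not called against capillary-like cells alone, whereas Unc5b and Sema3f were. No member of either list was called lower, where 3.62% of all genes were. The integrin gene Itgb4 (0.151 and 0.358) and the guidance genes Sema5a, Robo2, Ntn1, Plxnb2 and Efna5 were called lower. The lists do not hold them, and they were looked up afterwards.

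**Figure D5:**
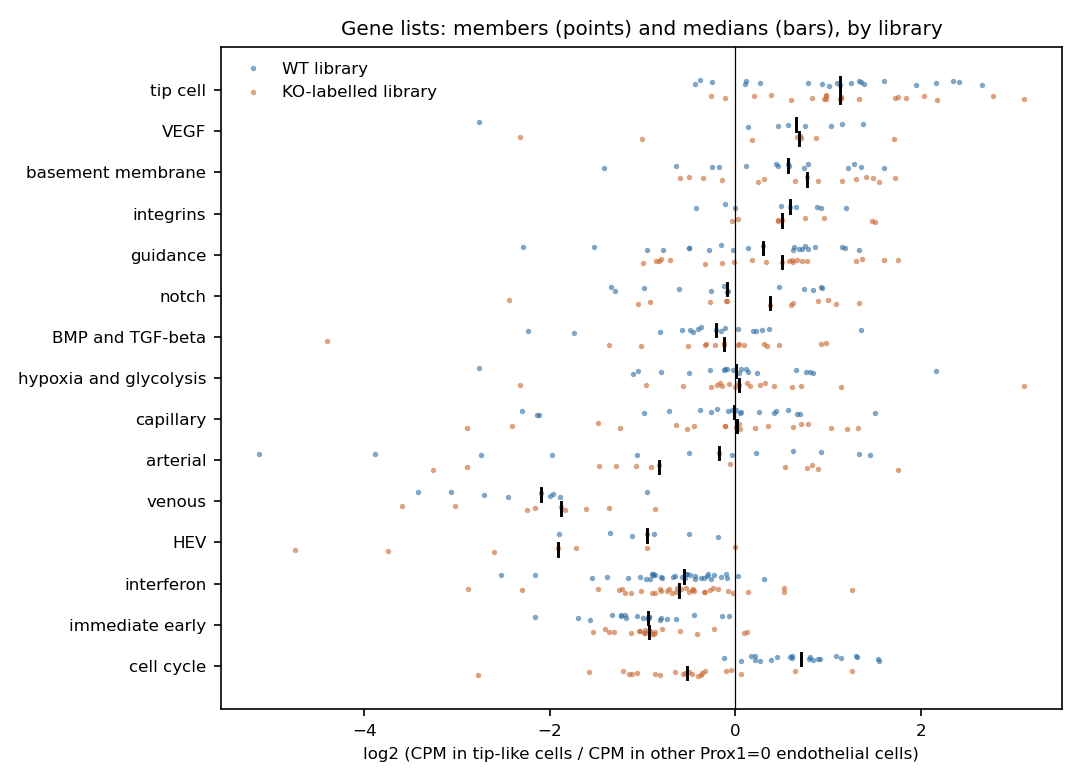
Log2 ratio of CPM in tip-like cells to CPM in other Prox1-negative endothelial cells for the members of 15 lists. Points are genes in a library and bars are list medians; the tip cell list has a median of 1.13 over both libraries, the venous list -2.06, and the cell cycle list 0.70 in WT and -0.52 in the KO-labelled library.

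Genes of resting capillaries divided. Of 20 measured, 8 lay above and 12 below 1. Gpihbp1, which carries lipoprotein lipase to the capillary surface, was found at 1407 against 494 CPM and 1255 against 612 CPM, ratios of 2.85 and 2.05. It was not called against capillary-like cells alone, for which it is 1 of the defining genes. Car4 was found at 22.6 against 111 CPM and 21.8 against 162 CPM, ratios of 0.203 and 0.134. Aqp7, a glycerol channel, had ratios of 0.230 and 0.189 and Timp4 0.227 and at most 0.360. The lipid carriers Fabp4 (1.04 and 1.04) and Cd36 (1.04 and 1.16) and the water channel Aqp1 (0.832 and 1.0) were near 1.

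Venous and HEV genes were lower. Of 9 venous genes measured 9 lay below 1 in each library and 7 were called lower, with a median log2 ratio of -2.06. Selp, the adhesion receptor P-selectin, had ratios of 0.183 and 0.211, Icam1, a leukocyte integrin ligand, 0.256 and 0.224, and Nr2f2, the transcription factor of vein identity, 0.235 and 0.328. Glycam1, a sialomucin of HEVs, was found at 273 against 1020.2 CPM and 70.3 against 1886 CPM. Of 13 arterial genes 4 were called lower, Bmx (0.150 and 0.104), Mgp (0.0285 and 0.135), Fbln5 (0.254 and 0.362) and Cxcl12 (0.480 and 0.409), and 1 higher, Unc5b. Venous, HEV and arterial cells are among the comparison cells. Against the capillary-like cells alone the venous list had a median log2 ratio of 0.40, the arterial list 0.63 and the HEV list -0.33. Those cells were defined as having no UMI of Glycam1, Chst4, Ackr1, Selp, Gja5 and Bmx, which moves these medians upward by construction.

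The 15 leading lower genes had few UMIs in tip-like cells, with 0 to 19 per gene and library. Eln, elastin, was found at 20.9 against 595 CPM and 20.1 against 339 CPM, and Slc6a6, a taurine transporter, at 33.0 against 452 CPM and 16.7 against 272 CPM. Both stayed lower against capillary-like cells, with ratios of 0.157 and 0.247 for Eln and 0.0586 and 0.0560 for Slc6a6. Cmah, of sialic acid synthesis, had ratios of 0.114 and 0.0127 and Syt1 0.0636 and 0.136. Col5a2, a fibrillar collagen gene, and Sele, E-selectin, had no UMI in tip-like cells of the WT library, which gives ratios of at most 0.0414 and 0.0931 there. Against capillary-like cells alone, Col5a2 and Mgp turned to the other side of 1 on the mean of both libraries. The others were Atp2a3, F2rl1, Ephx1, Ptprj, Efna5, Bmx, Dhh and Fmo1.

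Immediate early genes, which are induced within minutes by stress and dissociation, were lower in tip-like cells. Of 21 measured 19 lay below 1 in each library and 5 were called lower, with a median log2 ratio of -0.98. Jun had ratios of 0.524 and 0.508 and Fos 0.576 and 0.524. The flow-responsive transcription factors Klf2 and Klf4, which are also in that list, had ratios of 0.309 and 0.377 and of 0.224 and 0.486. Against capillary-like cells the median was -1.04, and the part of cell handling in this difference was not tested.

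Interferon genes were lower too. Of 34 measured 28 lay below 1 in each library, and 3 were called, Ifit3, Rsad2 and Cxcl10, all lower, with a median log2 ratio of -0.57. The rule removes cells rich in Cxcl9 from both classes. In female cells, with 6 and 13 tip-like cells, the median was 0.03. Of 4 MHC class II genes measured 3 were called lower: H2-Aa, H2-Ab1 and Cd74, the last at 62.5 against 141 CPM and 15.1 against 133 CPM. Hypoxia and glycolysis genes had a median log2 ratio of 0.01, with Adm called higher and Vegfa lower, and Gapdh, a glycolytic enzyme gene, had ratios of 1.03 and 1.0. Junction genes had a median of 0.26, with the gap junction gene Gja1 at 1.94 and 2.45. None of 17 autophagy genes was called, where 1.28% of all genes were called higher and 3.62% lower. Their median was -0.13, and Gabarap, of the LC3 family, had ratios of 0.943 and 1.05. Endothelial transcription factors had a median of -0.07, with Klf2, Klf4 and Nr2f2 called lower, Tcf4 at 1.15 and 1.16 and Ets1 at 0.901 and 1.01.

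Cell cycle genes differed between the libraries. Of 22 measured, 1, Ccnb2, a mitotic cyclin, was called higher, with ratios of 2.46 and 2.40. Mki67, a proliferation marker, was at 257 CPM in tip-like cells against 139 CPM in WT and at 78.6 against 174 CPM in the KO-labelled library, and Top2a, a topoisomerase of dividing cells, at 231 against 105 CPM and 53.5 against 160 CPM. A UMI of Mki67, Top2a, Cdk1 or Birc5 was found in 24 of 90 (26.7%, 17.9 to 37.0) and 25 of 93 (26.9%, 18.2 to 37.1) tip-like cells, against 17.3% and 16.7% of the others and 4.31% and 5.12% of B cells. After thinning to 1200 UMIs the shares were 14.4% and 6.45% against 8.29% and 9.73%. The shares of cells before thinning were alike, and 3 cells held 66.0% of these UMIs in the tip-like cells of the WT library and 54.5% in those of the KO-labelled library.

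Between the libraries, the tip cell genes of tip-like cells were mostly within 2-fold. With calls at 2-fold and an interval off 1, 125 of 7477 genes (1.67%) were higher in the KO-labelled library and 319 (4.27%) lower. Of 21 tip cell genes 1 was called, Ramp3, a co-receptor of adrenomedullin, and the list's median log2 ratio was 0.04, where all genes had -0.05. Apln had a ratio of 0.869 (0.747 to 1.01), Cxcr4 1.02 (0.842 to 1.25), Igfbp3 1.21 (1.15 to 1.27) and Kcne3 1.44 (1.22 to 1.69). Kcnj2 had 1.89 (1.54 to 2.33), the nearest of the leading genes to 2-fold. Mest had 1.49 in tip-like cells and 2.43 in the other cells, and that of Celf4 was 1.34 against 3.68.

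Among the genes higher in tip-like cells of the KO-labelled library, Thbs1 had the most UMIs. Thrombospondin-1, its product, is a matrix protein that restrains angiogenesis. Thbs1 was found at 426 CPM (245 UMIs) and 1034 CPM (618 UMIs), a ratio of 2.43 (2.09 to 2.83), and the ratio in the other cells was 1.22. It was detected in 56.7% and 76.3% of tip-like cells, and 1 cell held 9.39% of its UMIs in each library. Edn1, the vasoconstrictor endothelin-1, had 10 and 50 UMIs, a ratio of 4.81 (2.41 to 10.6), and Ccnd2, a G1 cyclin, 8 and 43 UMIs, a ratio of 5.18 (2.41 to 12.7). Dbn1, an actin-binding protein, had 29 and 92 UMIs, a ratio of 3.05 (1.99 to 4.81). In the other cells the ratios of Edn1, Ccnd2 and Dbn1 were 0.709, 0.826 and 0.797. The difference between the classes was not tested. Thbs1, Edn1, Ccnd2 and Dbn1 were called in male cells alone as well. Tfpi2 (3.61), Bgn (3.53), Ramp3 (3.17), Gpr1 (6.42), Echdc1 (7.06), D030007L05Rik (8.35) and D16Ertd472e (6.10) were also among the 12 leading genes. Of these, Tfpi2 and Bgn turned direction in female cells, and 1 cell held 91.7% of the Bgn UMIs of the WT library. In male cells alone Tfpi2, Bgn, Ramp3 and D030007L05Rik were called, whereas Gpr1, Echdc1 and D16Ertd472e were not. The call of D16Ertd472e was also lost without the cell with most of its UMIs.

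The genes lower in the KO-labelled library were led by LEC genes and by genes read mostly from single cells. Ccl21a, a chemokine of LECs, had 100 and 0 UMIs and was detected in 5.56% of tip-like cells of the WT library. Ackr4, a chemokine scavenger of LECs, had a ratio of 0.0370, and 1 cell held 94.2% of its UMIs in the WT library. Clu (0.225) and Ly6i had 79.8% and 95.8% of theirs in 1 cell. The LEC list had 4 of 6 measured members called lower and a median log2 ratio of -1.92, and it had -2.00 in the other cells. The list's median was -0.40 with a sum of at least 3 and 0.30 with the rule after thinning. Marco, another LEC gene, had no UMI in tip-like cells of either library. Tnc, the matrix protein tenascin-C, had 294 and 39 UMIs, a ratio of 0.128 (0.0890 to 0.179), with 58.8% of the WT UMIs in 1 cell, and its log2 ratio of -2.97 was 0.13 without cells with lymphatic markers, Flt4 included. It was -1.22 without cells with LEC genes other than Flt4 and -1.97 without the cell with most UMIs, and was called lower in both cases. Clu turned direction without cells with lymphatic markers too, and the part of LEC transcripts in these values was not tested further.

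Cell cycle genes were lower as well, on few cells. Of 22 measured 20 lay below 1 and 9 were called lower, with a median log2 ratio of -0.67 against 0.31 in the other cells. The direction depended on the rule, with medians of 0.13 at a sum of at least 3 and 1.03 with the rule after thinning. The median was -0.01 without cycling cells, a setting that by construction takes out the cells with UMIs of Mki67, Top2a, Cdk1 or Birc5. Each list median was taken over the genes with enough UMIs in that setting, so the genes behind them can differ. The HEV list had a median of -0.70 over 5 measured genes, with 1 called, Glycam1, of whose WT UMIs 1 cell held 72.6%. Mki67 had a ratio of 0.306 (0.215 to 0.427) and Top2a 0.232 (0.152 to 0.343). Kif4, Nusap1 and Cenpe, genes of mitosis, were among the 12 leading lower genes, with 22 and 0, 31 and 1, and 43 and 6 UMIs. Pcp4l1, Tead2, Slc14a1 and Dock10 complete these 12. Without the cell holding most of a gene's UMIs, 100 of the 125 higher and 224 of the 319 lower genes were kept. Without cells with a cycling UMI, 53 and 136 were kept in a smaller number of cells. In male cells alone, 67 and 166 were kept, again in fewer cells. Interferon genes (-0.11) and autophagy genes (-0.26) had medians nearer that of all genes, but the interferon median was 0.49 with no limit on Cxcl9. None of the 17 autophagy genes of the list was called, where 1.67% of all genes were called higher and 4.27% lower. Atg9a, an autophagy gene outside the list that was looked up afterwards, was called lower, with 26 and 10 UMIs and a ratio of 0.370 (0.159 to 0.794), but not in male cells alone.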

How the data were processed

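Single-cell RNA of sorted endothelial and immune cells was counted in 1 WT and 1 Atg5 KO library. Per the file headers, the authors processed the reads with the BD Rhapsody WTA Analysis Pipeline 1.11 on an mm10 reference. The deposited values are whole-number counts per barcode and gene, of which the molecule counts after error correction were used, with no normalization. The deposited tables hold all barcodes, so cells were selected by the conditions given in the text. The cells, the 30 gene lists (397 genes) and the named-gene rule were chosen with earlier results of these data known.

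UMIs were summed per class and library with numpy 2.4.6 and scipy 1.17.1. Genes with at least 20 UMIs over both classes in each library were compared, and genes without a UMI entered ratios at a floor of 3. Named genes were the 25 leading higher genes with at least 30 UMIs in tip-like cells of each library, the 15 leading lower, the 12 leading in each direction between libraries, and up to 5 members with most UMIs of a list plus those called. Intervals were Clopper-Pearson, Poisson and conditional binomial, and PCR duplicates are removed only as far as the molecule correction goes. Doublets were called with Scrublet (scanpy 1.11.5) as an alternative: 28 and 31 cells, none of them tip-like, which is over 0.5% in each library. Coordinates are from GENCODE M21 on mm10. Calculations were tested on simulated data. Alternatives covered the rule's thresholds, thinning, depth, mitochondrial share, lymphatic, pericyte, cycling and sex filters, comparison cells, scaling and UMI minimum. A pair of them, without the cell with most UMIs of a gene and without cells with LEC genes other than Flt4, were chosen after seeing the data, as were the venous, arterial and HEV classes. Some genes that the rule names are not reported here.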

Additional observations from a re-analysis of the deposited data

Results flagged for a closer look

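The cell cycle list went opposite ways in the libraries: its median log2 ratio of tip-like to other cells was 0.70 in WT and -0.52 in the KO-labelled library. The difference was not tested, since each genotype has 1 library.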

How the results depend on the processing

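The difference in share, 7.55 percentage points, kept its direction under the 12 alternatives run, from 4.57 (female cells) to 9.44 points (at most 10% mitochondrial UMIs). The shares in the WT and KO-labelled libraries were 11.2% and 17.8% with a sum of at least 3, 3.79% and 9.0% with the rule after thinning, 21.4% and 30.3% in male cells, and 7.14% and 11.7% in female cells. The higher genes numbered 68 at no more than 10% mitochondrial UMIs and 41 in female cells, the lower genes 168 and 115 there, 173 against capillary-like cells and 172 with at least 50 UMIs. Between libraries, the higher genes numbered 217 with the rule after thinning, 224 with per-cell means, 48 with at least 50 UMIs and 202 with at least 5, and the lower genes 106 and 493 at these minimums and 76 in female cells. In female cells the log2 ratio was -0.32 for Morrbid (tip-like over other), and between libraries -1.49 for Tfpi2, -2.95 for Bgn and 0.38 for Clu. Against capillary-like cells it was 0.38 for Col5a2 and 0.80 for Mgp. Between libraries Bgn had -1.48 with the rule after thinning, and without cells with lymphatic markers Tnc had 0.13 and Clu 0.62, the latter 0.51 without cells with LEC genes other than Flt4. The cause was not tested. Of the other values of named genes, 544 of the tip-like contrast and 321 between libraries stayed within the range allowed by counting error, and 145 and 45 went beyond it in the same direction. Without the cell with most UMIs of a gene, 91 of the 115 higher and 271 of the 326 lower genes were kept. No paired analysis was possible because each genotype has 1 library and the labels give no replicate numbers, and no replicate could be left out. Depth limits genes of few UMIs, and 19 to 23 cells stand behind the groups with 1 rule gene.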
